A study of Mus musculus with 12 samples.

Results

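Retinoic acid, the signalling form of vitamin A, was followed through 9 genes that make, bind, break down or receive it in mouse fetal lungs grown as explants. The genes were taken by symbol: the enzymes Aldh1a1, Aldh1a2 and Aldh1a3, the uptake receptor Stra6, the binding proteins Crabp1 and Crabp2, the degrading enzymes Cyp26a1 and Cyp26b1, and the nuclear receptor Rarb. All 9 were among the 24421 symbols of the deposited count table, and 8 of them were among the 15246 genes that passed the filter on low counts and were tested. Cyp26a1 did not pass and is described by its counts.

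Whole lungs were taken at embryonic day 12.5 from CD-1 mouse embryos of wild-type genotype, embedded in Matrigel on porous inserts with air above and medium below, and later profiled by bulk RNA sequencing. The 12 libraries fell into 3 groups of 4, which were set against each other. In the Day 2 compression group, a 20% solution of the polymer PEG-HCC had been crosslinked around the lung with a laser, forming a stiff barrier that restrained it until Day 2. In the Day 2 control group the same solution was added and left uncrosslinked for the same time. The Day 0 group was collected on the day the polymer was added, 1 day after isolation, and the sources used here do not say whether its lungs had met the polymer solution before they were collected. All lungs are explants without blood flow, breathing or a diaphragm. Compression and the laser crosslinking that produced it came together in 1 group, and they cannot be told apart. The part of the polymer solution in the comparisons with Day 0 was not tested. The labels do not say whether the libraries of a group came from separate embryos, so p-values measure the spread between these libraries.

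Cells take up retinol through Stra6, oxidise it in steps to retinaldehyde and then, through the Aldh1a enzymes, to retinoic acid. The acid is carried inside the cell by Crabp1 and Crabp2 and removed by the Cyp26 enzymes, and where it persists it binds nuclear receptors of the RAR family that sit with RXR partners on DNA. In the mouse, retinoic acid made in the mesoderm is needed for the lung to bud from the foregut, Aldh1a2 marks the mesothelium that covers the lung and other organs, and loss of retinoid signalling is a known route to diaphragm and lung defects.

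Receptor pairs bind DNA as repeats of a short unit, and Rarb and Cyp26a1 are textbook genes that retinoic acid switches on through such a repeat near the start of the gene. The promoters are printed because they hold that element just ahead of a RefSeq start of the gene. RefSeq promoters of build GRCm38.p6 were matched by symbol for 7 of the 9 genes, with 11 promoters in all, and Crabp2 and Aldh1a3 are named only. Each promoter, 250 bases before to 50 after a start, was searched on both strands for any of the units AGGTCA or AGTTCA or GGGTCA or GGTTCA, repeated in the same direction with 5 bases of any kind between them (the direct repeat with a spacer of 5, DR5). DR5 was found in Rarb and in Cyp26a1, and in 32 of all 32851 promoters (0.0974%). The same repeat with a spacer of 2 bases stood in 88 promoters (0.268%) and in none of the 11. In the lines that follow the repeated units are in capitals. The first pair are the elements, with that of Cyp26a1 read on the strand opposite to the gene, and the other lines are the 250 bases before the start, read along the gene. Cyp26b1, whose level fell, is given beside them as a promoter in which the search found no DR5.
Rarb element, chr14:16575513-16575529, minus strand: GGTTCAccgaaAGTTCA
Cyp26a1 element, chr19:37697776-37697792, minus strand: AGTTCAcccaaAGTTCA
Rarb, chr14:16575477-16575726, minus strand: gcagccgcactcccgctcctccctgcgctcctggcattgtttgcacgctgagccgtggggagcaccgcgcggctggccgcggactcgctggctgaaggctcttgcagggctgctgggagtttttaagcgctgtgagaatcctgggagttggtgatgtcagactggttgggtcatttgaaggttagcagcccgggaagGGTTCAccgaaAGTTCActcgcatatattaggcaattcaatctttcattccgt
Cyp26a1, chr19:37697558-37697807, plus strand: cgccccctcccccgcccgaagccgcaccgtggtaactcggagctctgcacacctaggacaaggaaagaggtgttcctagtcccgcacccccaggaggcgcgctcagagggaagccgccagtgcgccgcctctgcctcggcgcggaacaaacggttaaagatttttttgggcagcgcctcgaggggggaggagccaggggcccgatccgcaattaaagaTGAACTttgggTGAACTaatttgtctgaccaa
Cyp26b1, chr6:84593811-84594060, minus strand: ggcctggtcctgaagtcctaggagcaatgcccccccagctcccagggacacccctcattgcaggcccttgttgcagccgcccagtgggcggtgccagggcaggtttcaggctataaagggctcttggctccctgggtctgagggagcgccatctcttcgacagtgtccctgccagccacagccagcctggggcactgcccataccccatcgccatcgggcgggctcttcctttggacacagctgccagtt
Counted from the RefSeq start behind each promoter, the element of Rarb lay 53 to 37 bases before position 16575476, and that of Cyp26a1 lay 32 to 16 bases before position 37697808. The gene coordinates given further on are those of the GENCODE models, whose outermost starts differ from these. The RefSeq start of Rarb lies 243680 bases inside the GENCODE gene, so its element and promoter belong to an internal start. For Cyp26a1 the GENCODE start is 10 bases earlier, which leaves the element 22 to 6 bases before it, and for Cyp26b1 the RefSeq start lies 98 bases inside the gene. A match of letters is a description and was not tested for binding. The expression of the pair is given with the other members below: Rarb was among the most abundant of the 9 genes per length and did not pass the test in any comparison, and Cyp26a1 had at most 15 counts in a library. Of the 31 genes with DR5 in a promoter, 8 were tested, and 2 rose and 3 fell in both Day 2 groups against Day 0, where 49.1% of all genes tested were called for compression and 40.2% for control. With 8 genes, nothing is read from that count.

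Total counts were 25680019 to 31739019 under compression, 15452117 to 30805341 in controls and 13979871 to 33249761 at Day 0. Values are CPM (counts scaled by the TMM-scaled library size), given by library in the order of the replicate numbers, and as mean ± SD (n = 4) where a group is summarised. Markers of the lung were present throughout: the 12 epithelial markers, among them the lung factor Nkx2-1, summed to 1849 to 1953 CPM under compression, 1734 to 2005 CPM in controls and 1256 to 1365 CPM at Day 0. Control replicate 4 held RNA of liver genes, with Alb at 637.7 CPM and Afp at 744.7 CPM, which is 286 times and 46.14 times the next highest library. Compression replicates 2 and 3 differed less from each other than any other pair of a group (mean chi-square per gene 4.087, against 7.513 or more), and their descriptions share the number 13. Xist, which female cells transcribe, was above 100 CPM in compression replicate 1 and control replicates 2 and 3 and in none of the Day 0 libraries. The 8 tested members kept their calls without each of these libraries except where a sentence says otherwise.

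Over 2 days of culture, with or without compression, the uptake receptor Stra6, the binding protein Crabp2 and the degrading enzyme Cyp26b1 fell, and the synthetic enzyme Aldh1a1 rose. In the comparison of compression with control, where the question was whether mechanical restraint changes these genes, none of the 8 passed the test. For Day 2 compression against Day 0, 1 member rose and 3 fell at an adjusted p under 0.05 in edgeR's quasi-likelihood test, where 49.1% of all genes tested were called (26.6% higher, 22.5% lower). Between Day 2 control and Day 0 the same 1 rose and the same 3 fell, where 40.2% of all genes were called (22.6% higher, 17.6% lower). At an unadjusted p under 0.05 the members numbered 4 of 8 in both, against 55.5% of all genes for compression and 48.9% for control. The groups did not overlap for 4 of 8 members under compression (43.0% of all genes) and for 3 of 8 in controls (37.9%). The share of members called, 4 of 8, is thus near the background, and the count alone is not a result about retinoic acid genes. Both comparisons use the same Day 0 libraries, so they are not independent of each other.

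**Figure D1:**
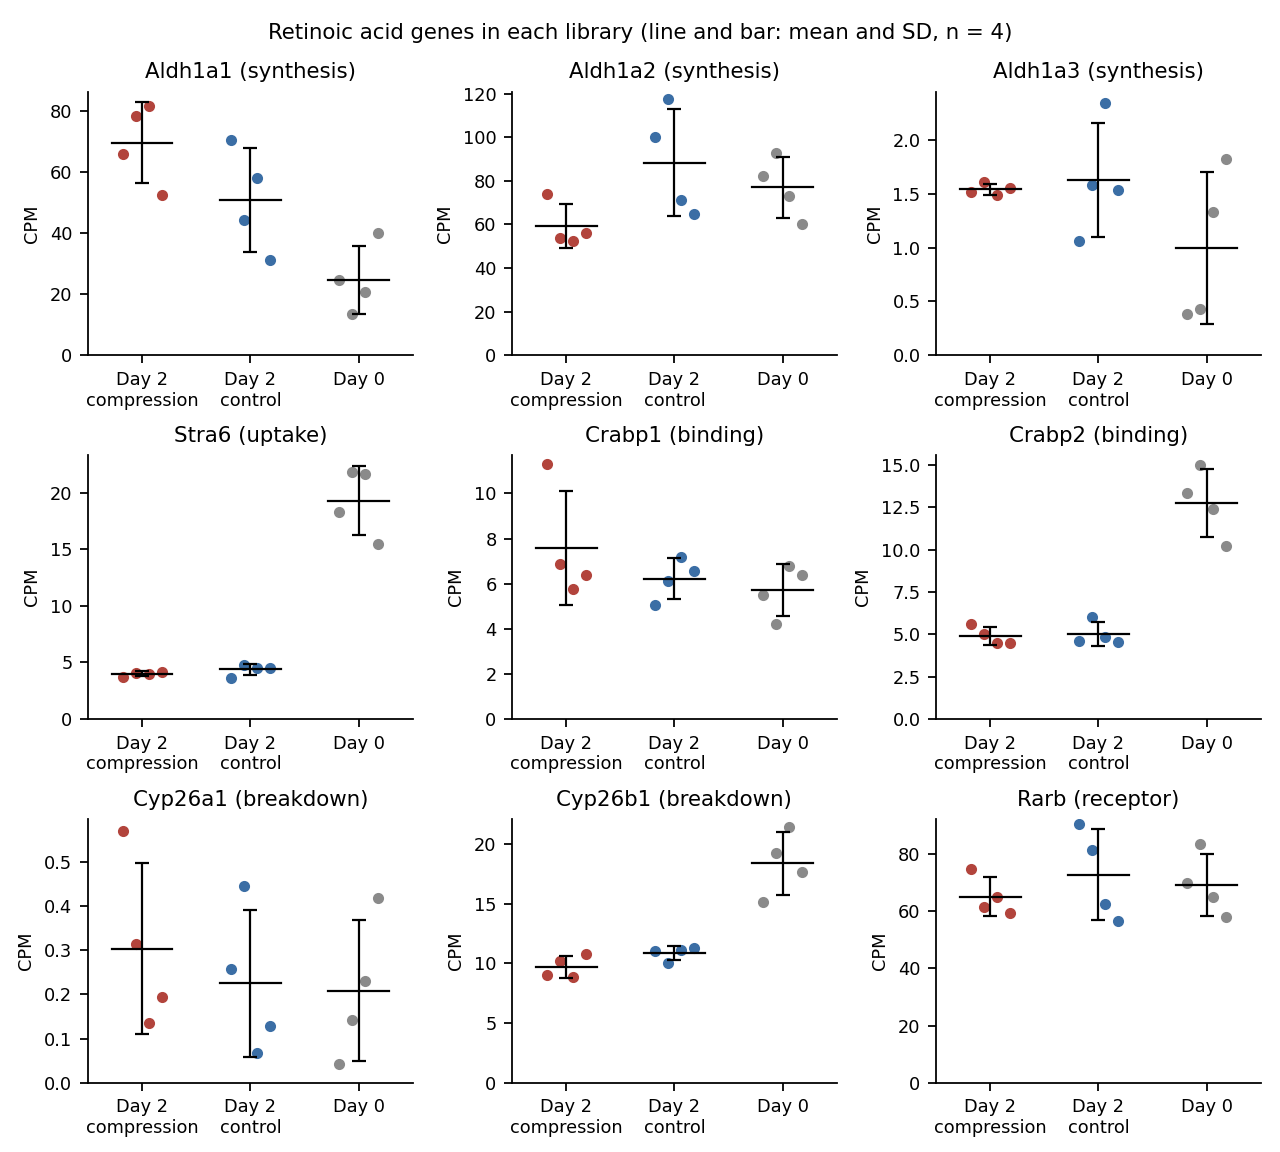
Level of each of the 9 genes in every library, in CPM on axes that start at 0, with 1 point per library and the mean ± SD (n = 4) as line and bar. All 8 Day 2 libraries lie below all 4 Day 0 libraries for Stra6, Crabp2 and Cyp26b1, while the groups of Rarb, Crabp1, Aldh1a3 and Cyp26a1 overlap.

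The enzymes of synthesis came apart from each other. Aldh1a1, which oxidises retinaldehyde and other aldehydes, had 66.13, 78.44, 81.72 and 52.68 CPM under compression. It had 70.57, 44.36, 58.11 and 31.1 CPM in controls and 24.56, 13.45, 20.59 and 40.04 CPM at Day 0. Every compression library was above every Day 0 library, 3 of the 4 controls were above every Day 0 library, and compression and control libraries overlapped. Aldh1a1 rose 2.79-fold under compression against Day 0 (log2 fold change 1.48, SE 0.32, edgeR adjusted p = 0.00245). It also rose 2.05-fold in controls against Day 0 (log2 fold change 1.03, SE 0.31, edgeR adjusted p = 0.0213). That second call was lost when Day 0 replicate 3, control replicate 1 or control replicate 3 was left out (edgeR adjusted p = 0.05399, 0.0718 and 0.05283). Between compression and control the difference was 0.44 on the log2 scale (SE 0.31, 95% interval -0.23 to 1.11, edgeR adjusted p = 0.5516).

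Aldh1a1 has a close relative on the same chromosome, Aldh1a7, and any reads that match both genes would make the values of both uncertain. How many reads match both was not measured. The genes lie on chromosome 19 of GRCm38, Aldh1a1 at 20492715 to 20643465 on the plus strand and Aldh1a7 at 20692953 to 20727562 on the minus strand. Their transcripts were identical at 89.5% of 2017 aligned bases, against 69.8% of 1495 for Aldh1a1 and Aldh1a2. Aldh1a7 averaged 231.1 ± 48.5 CPM under compression, 254.5 ± 62.3 CPM in controls and 102.3 ± 25.7 CPM at Day 0. It rose against Day 0 by 1.17 under compression and by 1.31 in controls on the log2 scale (edgeR adjusted p = 7.69e-04 and 4.69e-04), and its difference between compression and control was -0.14 (edgeR adjusted p = 0.7998).

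Aldh1a2, the main retinoic acid-forming enzyme of the early embryo, lies on chromosome 9 (71215789 to 71296243, plus strand). Per kilobase of annotated exon it was the most abundant of the 9 genes in each group. It had 74.16, 53.89, 52.47 and 55.95 CPM under compression, against 100.1, 117.5, 71.06 and 65 CPM in controls. At Day 0 it had 82.06, 93.02, 72.99 and 60.02 CPM. The compressed lungs of replicates 2 to 4 were below every control, and compression replicate 1 lay inside the range of the controls. The mean was 59.1 ± 10.1 CPM under compression and 88.4 ± 24.7 CPM in controls, a log2 fold change of -0.58 (SE 0.19). Its unadjusted p was 0.009021 and its adjusted p 0.3559 in edgeR's test over all genes, so it did not pass. It was the 1 member of 8 under an unadjusted p of 0.05, where 12.1% of all genes were. The difference from Day 0 did not pass either, at -0.38 under compression (edgeR adjusted p = 0.1168) and 0.21 in controls (edgeR adjusted p = 0.4174). The difference of compression from Day 0 was called in 5 of 21 alternatives. Without compression replicate 1 or without Day 0 replicate 4 it was -0.53 or -0.50 (edgeR adjusted p = 0.03994 and 0.04899). It was -0.38 in a fit of only the 8 libraries compared and -0.37 when replicate numbers were blocked (edgeR adjusted p = 0.04625 and 0.03185), and -0.44 in limma-voom with quality weights (adjusted p = 0.02498). Over the 21 it ran between -0.53 and -0.28, with adjusted p between 0.02498 and 0.2788.

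In the comparison of compression with control, edgeR called 0% of all 15246 genes, and 1839 had an unadjusted p under 0.05. DESeq2's Wald test called 71 genes and none of the 9. Limma-voom with sample quality weights called 1958 genes, among them Aldh1a2 at -0.56 (adjusted p = 0.02431) and Aldh1a1 at 0.63 (adjusted p = 0.04727). Over 21 alternatives the log2 difference of Aldh1a2 ran between -0.71 and -0.41 with adjusted p between 0.02431 and 0.688, and it was called by limma-voom alone. The groups did not overlap for 5.77% of all genes in this comparison and for 0 of the 8 members.

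The balance of the main enzymes can be read within a library as the ratio of their CPM values, which carries no correction for gene length and is compared only between groups. Aldh1a2 over Aldh1a1 was 0.642 to 1.121 under compression, 1.223 to 2.65 in controls and 1.499 to 6.915 at Day 0. The ranges of compression and control did not overlap, and those of control and Day 0 did. The denominator would be uncertain if Aldh1a1 shared reads with Aldh1a7, which was not measured. Aldh1a2 over Cyp26b1 was 5.189 to 8.193 under compression, 5.751 to 11.69 in controls and 3.397 to 5.403 at Day 0. In that ratio compression overlapped both other groups, and control and Day 0 did not overlap. Both ratios were formed after the values of the genes were known and have no test.

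Aldh1a3, the third enzyme of the family, was scarce. Its summed counts were 178 under compression, 172 in controls and 105 at Day 0, at 1.54 ± 0.05 CPM, 1.63 ± 0.53 CPM and 0.992 ± 0.707 CPM in that order of groups. Day 0 held both the lowest libraries, at 0.3851 and 0.427 CPM, and libraries at 1.33 and 1.827 CPM that overlapped those of Day 2. It did not pass the test in any comparison, with log2 differences of -0.08 for compression against control (SE 0.39), 0.57 for compression against Day 0 (SE 0.41) and 0.65 for control against Day 0 (SE 0.41). Without Day 0 replicate 4 it was called in both comparisons with Day 0, at 1.06 under compression (edgeR adjusted p = 0.04757) and 1.14 in controls (edgeR adjusted p = 0.04176).

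**Figure D2:**
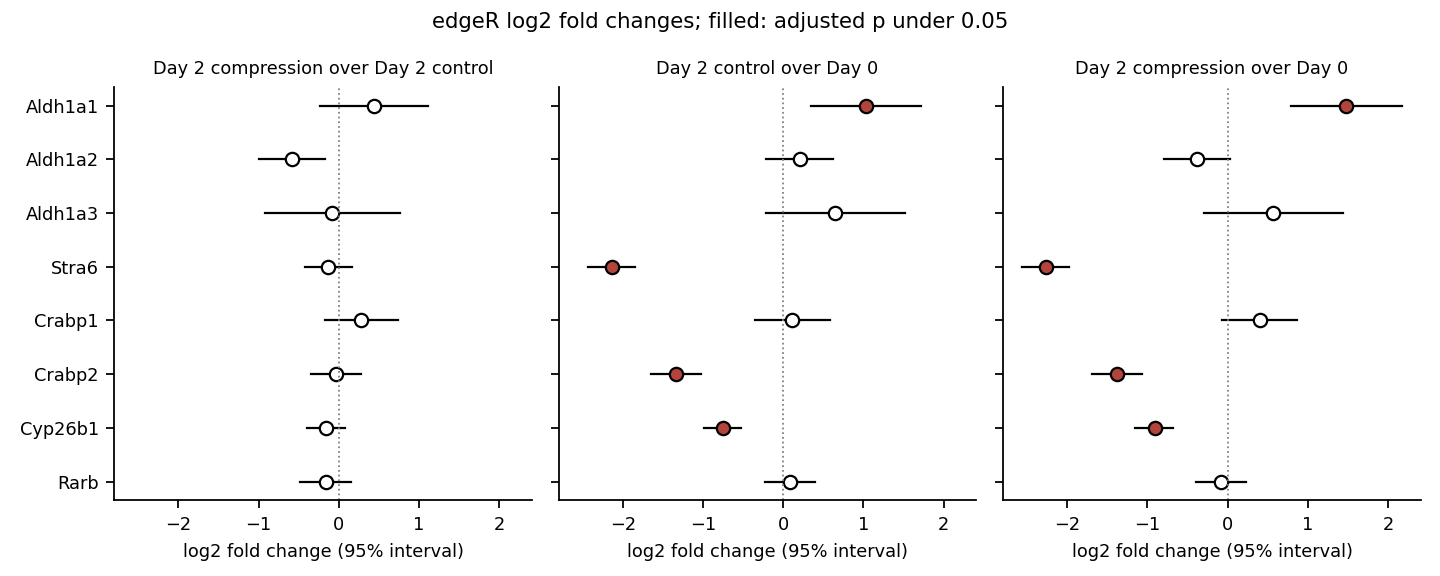
Log2 fold change of the 8 tested genes in the 3 comparisons, from edgeR, with 95% intervals as lines and filled points for an adjusted p under 0.05. No point is filled for compression over control, and Aldh1a1, Stra6, Crabp2 and Cyp26b1 are filled in both comparisons with Day 0.

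Stra6, the membrane receptor that takes retinol from its carrier in the blood and whose loss in humans causes malformed eyes, lungs and diaphragm, changed most. The gene lies on chromosome 9 (58063788 to 58153996, plus strand). It had 3.689, 4.091, 3.986 and 4.177 CPM under compression, 3.636, 4.803, 4.52 and 4.533 CPM in controls, and 18.27, 21.85, 21.64 and 15.45 CPM at Day 0. The 8 Day 2 libraries were all low and close together, and all 4 Day 0 libraries were well above them. Stra6 was 4.82-fold lower under compression than at Day 0 (log2 fold change -2.27, SE 0.13, edgeR adjusted p = 7.10e-08). It was 4.41-fold lower in controls than at Day 0 (log2 fold change -2.14, SE 0.13, edgeR adjusted p = 1.26e-07). Its rank by p among the 15246 genes was 29 and 36 in these comparisons. The difference between compression and control was -0.13 (SE 0.14, 95% interval -0.42 to 0.16, edgeR adjusted p = 0.6934).

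The binding proteins did not change alike. Crabp2, which carries retinoic acid to its nuclear receptors, lies on chromosome 3 (87948666 to 87953376, plus strand). It had 5.59, 5.036, 4.493 and 4.468 CPM under compression, 4.602, 6.038, 4.86 and 4.533 CPM in controls, and 13.35, 15.02, 12.38 and 10.24 CPM at Day 0. Each Day 2 library was under each Day 0 library. Crabp2 fell by 1.38 on the log2 scale under compression against Day 0 (SE 0.14, edgeR adjusted p = 6.47e-06) and by 1.34 in controls against Day 0 (SE 0.15, edgeR adjusted p = 1.19e-05). Between compression and control it differed by -0.04 (SE 0.15, 95% interval -0.35 to 0.28).

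Crabp1, which binds the same ligand and is tied to its breakdown, lies on chromosome 9 (54764748 to 54773110, plus strand). It had 11.33, 6.854, 5.743 and 6.379 CPM under compression, 5.052, 6.107, 7.171 and 6.577 CPM in controls, and 5.476, 4.199, 6.786 and 6.38 CPM at Day 0. Compression replicate 1 was the highest of all 12, and the other 11 libraries overlapped across groups. The log2 differences were 0.28 for compression against control (SE 0.21, edgeR adjusted p = 0.5799), 0.40 for compression against Day 0 (SE 0.21, edgeR adjusted p = 0.1428) and 0.11 for control against Day 0 (SE 0.22, edgeR adjusted p = 0.7137). Without compression replicate 1 the difference between compression and control was 0.02 (edgeR adjusted p = 0.9576). As a ratio of CPM within a library, Crabp1 over Crabp2 was 1.278 to 2.027 under compression, 1.011 to 1.476 in controls and 0.2796 to 0.6228 at Day 0, so all Day 2 libraries were above all Day 0 libraries. The numerator had no called difference, and the denominator is the gene that fell.

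Of the enzymes that degrade retinoic acid, Cyp26b1 was the one expressed at a level that could be tested. It lies on chromosome 6 (84571414 to 84593908, minus strand) and had 9.051, 10.21, 8.885 and 10.78 CPM under compression. It had 11.07, 10.05, 11.15 and 11.3 CPM in controls and 15.19, 19.22, 21.46 and 17.67 CPM at Day 0. All Day 2 libraries were below all Day 0 libraries. Cyp26b1 fell by 0.91 on the log2 scale under compression against Day 0 (SE 0.11, edgeR adjusted p = 2.01e-05) and by 0.75 in controls against Day 0 (SE 0.11, edgeR adjusted p = 1.34e-04). Compression replicates 1 and 3 were below every control, and the difference between compression and control was -0.16 (SE 0.11, 95% interval -0.40 to 0.08, edgeR adjusted p = 0.5514).

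Cyp26a1 (chromosome 19, 37697798 to 37701536, plus strand), the enzyme of the early embryo that is switched on by retinoic acid, had 15, 9, 4 and 6 counts under compression, 8, 13, 2 and 2 counts in controls and 1, 2, 5 and 14 counts at Day 0. That is 0.304 ± 0.193 CPM under compression, 0.225 ± 0.167 CPM in controls and 0.208 ± 0.160 CPM at Day 0. Counts in a group spread more widely than the groups differed, and no difference was detectable at this depth. Cyp26c1, the third enzyme of this family, had 0 counts in the 4 compression libraries, which allows up to 0.026 CPM over the group. It had 1 count in each of the other groups. These limits cover counting error only.

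Rarb, the receptor with the element printed above, is a widely used readout of retinoic acid signalling. It lies on chromosome 14 (16430839 to 16819156, minus strand). It had 74.88, 61.51, 65 and 59.42 CPM under compression, 90.58, 81.58, 62.7 and 56.51 CPM in controls, and 69.91, 83.56, 65.11 and 57.96 CPM at Day 0. The 3 groups overlapped fully. The log2 difference was -0.16 for compression against control (SE 0.15, 95% interval -0.48 to 0.15), -0.08 for compression against Day 0 (95% interval -0.40 to 0.23) and 0.08 for control against Day 0 (95% interval -0.23 to 0.40). Exons of Rarb share 34.1% of their length with Top2b on the opposite strand, and the strand setting of the counts is not given, so reads of that part cannot be assigned. Top2b, a topoisomerase, had 428.2 ± 53.1 CPM under compression, 497.1 ± 43.4 CPM in controls and 574.3 ± 45.9 CPM at Day 0.

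Levels of different genes were compared as CPM per kilobase of annotated exon. Under compression, Aldh1a2 came first at 26.1, above Aldh1a1 (14.1), Rarb (12.4) and Crabp1 (9.45), whose libraries overlapped one another. Crabp2 (3.70), Cyp26b1 (1.82), Stra6 (0.684), Aldh1a3 (0.334) and Cyp26a1 (0.153) followed, each with all its libraries under those of the gene before. In controls Aldh1a2 stood at 39.1, Rarb at 13.8, Aldh1a1 at 10.3 and Crabp1 at 7.76, with overlap between each of the last 3 and its neighbour. Crabp2 (3.79), Cyp26b1 (2.04), Stra6 (0.750), Aldh1a3 (0.353) and Cyp26a1 (0.113) again stood apart from their neighbours. At Day 0, Aldh1a2 at 34.0 stood above Rarb (13.1), Crabp2 (9.64), Crabp1 (7.12), Aldh1a1 (4.99), Cyp26b1 (3.44) and Stra6 (3.31), and each of these 6 overlapped its neighbour. Aldh1a3 (0.215) and Cyp26a1 (0.105) were the lowest at Day 0 and overlapped each other. By this length Aldh1a2 led in all 3 groups, with no library of another member reaching it. Its lead under compression depends on the length chosen. The annotated exons of Aldh1a1 cover 4937 bases and its longest coding transcript 2358, while both lengths are 2264 for Aldh1a2. In CPM without a length, Aldh1a1 had the higher mean under compression (69.74 against 59.12).

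**Figure D3:**
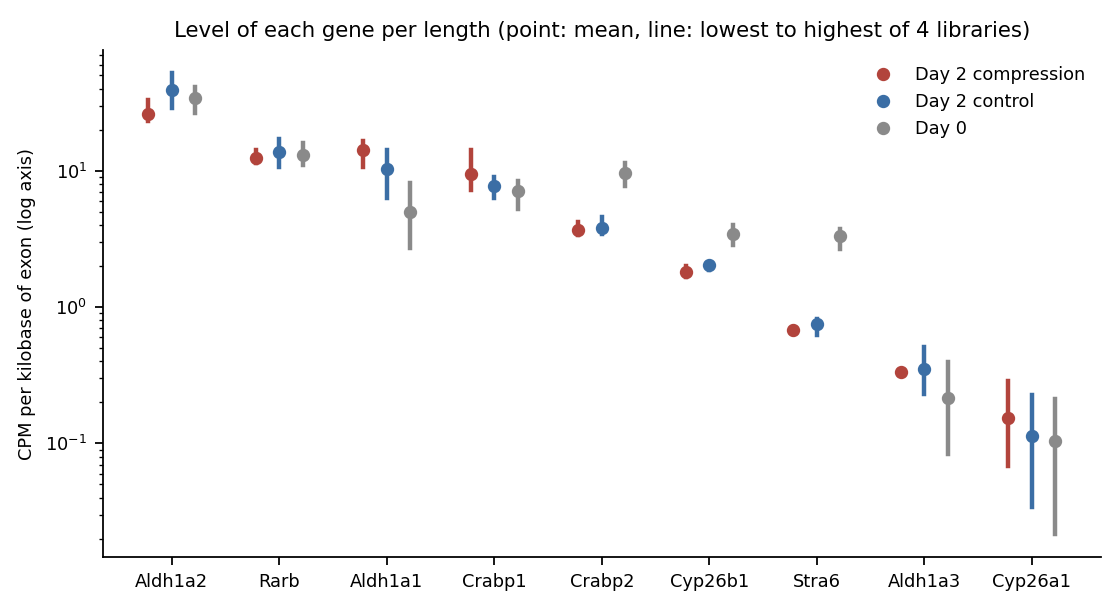
Level of each gene per kilobase of annotated exon, in CPM on a log axis, with the mean of 4 libraries as a point and the lowest to the highest library as a line. By this length Aldh1a2 is highest in each group, and Crabp2, Cyp26b1 and Stra6 are higher at Day 0 than in both Day 2 groups.

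Other genes of the pathway were counted from lists. Of the 20 genes of retinoid uptake, storage and oxidation, 18 were tested (not Bco1 and Cyp26c1). Under compression against Day 0, 6 of these rose (Adh1, Stra6l, Rdh11, Rdh14, Dhrs9, Fabp5) and 3 fell (Dgat1, Rdh13, Dhrs4). In controls against Day 0, 6 rose (Adh1, Stra6l, Rdh11, Dhrs9, Rbp4, Adh7) and 3 fell (Dgat1 and Rdh13 among them). The share of all genes called was 49.1% for compression (26.6% higher, 22.5% lower) and 40.2% for control (22.6% higher, 17.6% lower). In each comparison 9 of the 18 were not called, so the counts are near the background and alone are not a result about this list. The values of Rbp4, the retinol carrier of the blood, and of Dhrs9, a retinol dehydrogenase, lean on control replicate 4, the library with liver RNA. Rbp4 had 11.81, 10.29, 10.67 and 35.37 CPM in controls and 6.769 to 8.899 CPM at Day 0. Its log2 difference of 1.16 was 0.53 without that library and was still called (edgeR adjusted p = 0.007018). Dhrs9 had 0.354, 0.1372, 0.7137 and 2.363 CPM in controls and 0.1423 to 0.321 CPM at Day 0. Its fold change of 4.06 was 2.02 times smaller without that library and was no longer called (edgeR adjusted p = 0.1353). The median log2 fold change was 0.09 under compression and 0.12 in controls, against 0.017 and 0.020 over all genes tested.

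Adh1, an alcohol dehydrogenase that can oxidise retinol, was the most abundant of this list at Day 2 per length. It had 256.8, 340.7, 340.5 and 342.3 CPM under compression, 217.1, 235.4, 298.7 and 286.9 CPM in controls, and 77.27, 87.69, 142.8 and 126.6 CPM at Day 0. All Day 2 libraries exceeded all Day 0 libraries, and Adh1 rose 2.94-fold under compression (edgeR adjusted p = 2.36e-05) and 2.385-fold in controls (edgeR adjusted p = 1.67e-04). Stra6l, a relative of Stra6, had 1.369, 1.923, 2.263 and 1.813 CPM under compression, 0.5792, 0.8577, 0.9176 and 1.724 CPM in controls, and 0.1284, 0.2847, 0.4127 and 0.5092 CPM at Day 0. It rose 5.28-fold under compression against Day 0 (edgeR adjusted p = 2.21e-04) and 2.82-fold in controls (edgeR adjusted p = 0.01003), the opposite direction to Stra6. The Day 0 values of Stra6l rest on 3, 4, 9 and 17 counts, and its highest control was replicate 4, the library with liver RNA. Between compression and control Stra6l differed by 0.91 (SE 0.35, edgeR adjusted p = 0.3774).

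Rdh10, which makes the retinaldehyde that the Aldh1a enzymes use, did not pass in any comparison. Its values were 36.39, 27.87, 27.26 and 20.95 CPM under compression, 49.62, 48.82, 25.01 and 30.65 CPM in controls, and 46.8, 58.29, 28.84 and 22.82 CPM at Day 0, and the 3 groups overlapped. Dhrs3, which turns retinaldehyde back to retinol, averaged 56.9 CPM under compression, 50.1 CPM in controls and 51.3 CPM at Day 0, with no call.

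All 12 receptors and cofactors were tested. Under compression against Day 0, 1 rose (Ncoa1) and 7 fell (among them Rara, Rxrg, Ncor1, Ncoa2, Ncoa3 and Nrip1), and in controls against Day 0, 1 rose (Ncoa1) and 6 fell (among them Rara, Rxra, Rxrg, Ncoa3 and Nrip1). Over all genes tested, 49.1% were called for compression (26.6% higher, 22.5% lower) and 40.2% for control (22.6% higher, 17.6% lower). The medians of the list were -0.17 under compression and -0.22 in controls, against 0.017 and 0.020 over all genes tested. Rara, a receptor present in most tissues, averaged 71.3 CPM under compression, 66.0 CPM in controls and 87.1 CPM at Day 0, and fell by 0.29 under compression (edgeR adjusted p = 0.01573) and by 0.40 in controls (edgeR adjusted p = 0.002799). Rarg averaged 89.3, 88.0 and 92.0 CPM and Rxrb 66.1, 63.2 and 71.0 CPM under compression, in controls and at Day 0, with no call. Rxra, an RXR partner, had a log2 difference of -0.12 under compression against Day 0 (edgeR adjusted p = 0.1776), and fell by 0.27 in controls (edgeR adjusted p = 0.008508). Rxrg, at 0.657 CPM under compression, 0.682 CPM in controls and 1.285 CPM at Day 0, was called near the threshold in controls (edgeR adjusted p = 0.04909), and the call was lost in most alternatives. Nrip1, a corepressor that retinoic acid itself induces, fell by 0.76 under compression (edgeR adjusted p = 1.23e-05) and by 0.70 in controls (edgeR adjusted p = 3.27e-05), and the coactivators moved apart, with Ncoa1 at 0.40 under compression and 0.34 in controls and Ncoa3 at -0.47 under compression and -0.43 in controls.

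Of 20 genes known to respond to retinoic acid, 17 were tested (not Hoxb1, Cdx1 and Stra8). Under compression against Day 0, 2 rose (Tgm2, Rarres2) and 10 fell, and in controls 2 rose (the same genes) and 11 fell. Among all genes tested, 49.1% were called for compression (26.6% higher, 22.5% lower) and 40.2% for control (22.6% higher, 17.6% lower). The medians of the list were -0.69 under compression and -0.61 in controls, against 0.017 and 0.020 over all genes tested. Those that fell in both included Hoxa4, Hoxa5, Hoxb4, Hoxb5, Meis1, Meis2, Nr2f1, Nr2f2 and Nrip1, most of them transcription factors of axial patterning and mesenchyme. Hoxa5, a Hox factor needed for lung and airway development, had 101.8, 102.8, 100.9 and 102.1 CPM under compression, 98.69, 107.2, 101.9 and 83.77 CPM in controls, and 200, 191.5, 165.9 and 155.1 CPM at Day 0. The fall of Hoxa5 was 0.80 under compression (edgeR adjusted p = 7.62e-06) and 0.86 in controls (edgeR adjusted p = 6.55e-06). Meis2 fell by 0.74 under compression (edgeR adjusted p = 6.04e-07) and by 0.61 in controls (edgeR adjusted p = 3.56e-06). Rarres2, which encodes the secreted protein chemerin, rose by 1.36 under compression (edgeR adjusted p = 7.63e-05) and by 0.99 in controls (edgeR adjusted p = 0.001213). Many genes of this list answer to other signals too, and the list does not measure retinoic acid.

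Between compression and control, none of the 18, 12 and 17 genes of these lists was called by edgeR or DESeq2. At an unadjusted p under 0.05 in edgeR the counts were 1 (Stra6l), 0 and 2 (Nr2f1 and Meis2), where 12.1% of all genes were. Limma-voom called 2 of 18, 0 of 12 and 2 of 17, where it called 1958 of all 15246 genes. None of these counts is above the share over all genes. The medians were -0.04, -0.01 and 0.01, against 0.004 over all genes.

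Some calls of these lists against Day 0 were lost when 1 library was left out, at edgeR adjusted p between 0.05029 and 0.1554. Under compression these were Rdh11, Rdh14, Fabp5, Dhrs4, Rara, Ncor1, Rxrg and Tgm2. In controls they included Adh7, Dhrs9, Rdh13 and Rxrg. The call of Rara under compression was lost without Day 0 replicate 2 (edgeR adjusted p = 0.05344).

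**Figure D4:**
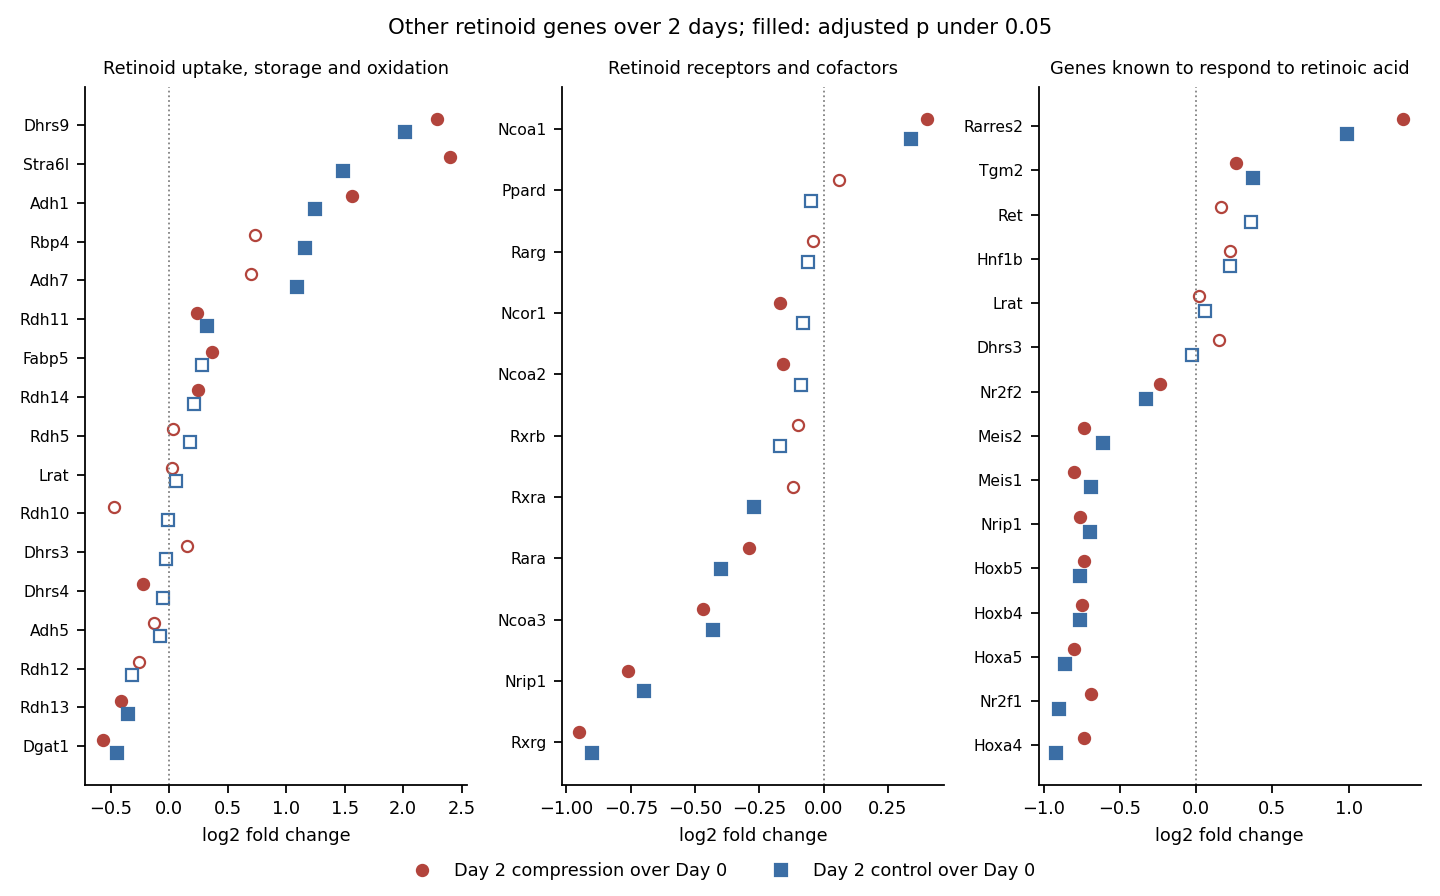
Log2 fold changes against Day 0 of tested genes of the 3 lists, a few left out, with circles for Day 2 compression and squares for Day 2 control, filled where the edgeR adjusted p was under 0.05. Circles and squares of a gene share the same Day 0 libraries, and most genes of the third list lie left of 0 in both.

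Markers of cell types moved between the days, and in bulk RNA fewer cells of a type and less RNA per cell cannot be told apart. All 8 endothelial markers fell in both Day 2 groups against Day 0, with medians of -2.31 under compression and -2.46 in controls, and summed to 76.55 to 95.03 CPM under compression, 51.97 to 105.4 CPM in controls and 304.1 to 517.4 CPM at Day 0. Of 12 epithelial markers, 8 rose and 1 fell in each Day 2 group. Of 10 mesenchymal markers, 2 rose and 4 fell under compression and 1 rose and 5 fell in controls. Beside these counts, 49.1% of all genes tested were called for compression (26.6% higher, 22.5% lower). For control 40.2% were called (22.6% higher, 17.6% lower). With 10 mesenchymal markers, nothing is read from their count. The part of these shifts in the falls of Stra6, Crabp2 and Cyp26b1 and in the rise of Aldh1a1 was not tested.

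Mesothelial markers bear on Aldh1a2. Of the 10 listed, 9 were in the table and tested (not Muc16), and they summed to 272.8 to 287.4 CPM under compression, 248.6 to 355.3 CPM in controls and 153 to 178 CPM at Day 0. Between compression and control none of the 9 was called by edgeR, while 7 had an unadjusted p under 0.05, as 12.1% of all genes tested did. Of the 7, Wt1 (-0.31), Upk3b (-0.68), Lrrn4 (-0.90), Gpm6a (-0.53) and Bnc1 (-0.34) were on the negative side, as Aldh1a2 was. Msln (0.43) and Krt19 (0.25) were on the positive side. The part of these markers in the difference of Aldh1a2 was not tested.

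Aldh1a2, Rarb and Rdh10 varied together from library to library. At Day 0 the order of the libraries from high to low was replicate 2, 1, 3 and 4 for each of the 3 genes. Among controls, replicates 1 and 2 were the high pair for each of them, and replicates 3 and 4 the low pair. Under compression, replicate 1 was highest for each, and the other libraries kept no common order: replicate 4 was second in Aldh1a2 and lowest in Rarb and Rdh10. Over all 12 libraries Pearson's r of log2 CPM was 0.84 for Aldh1a2 with Rarb and 0.85 with Rdh10, and 0.91 and 0.86 after each group's mean was removed. Libraries share tissue makeup and handling, so these values describe the libraries and have no test. At Day 0 and in controls, replicates 1 with 2 and 3 with 4 were also the closest pairs by chi-square. The mean chi-square per gene was 12.69 and 7.513 for these pairs at Day 0, and 22.9 and 16.67 in controls. The labels name no batch, and whether these pairs reflect a batch was not tested. The mesothelial markers Lrrn4, Bnc1, Wt1 and Upk3b followed Aldh1a2 as closely within groups (r of 0.91, 0.93, 0.90 and 0.90), Rspo1 less closely (0.70), and Gpm6a (0.32), Upk1b (0.14), Msln (-0.06) and Krt19 (-0.37) had low or negative values.

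**Figure D5:**
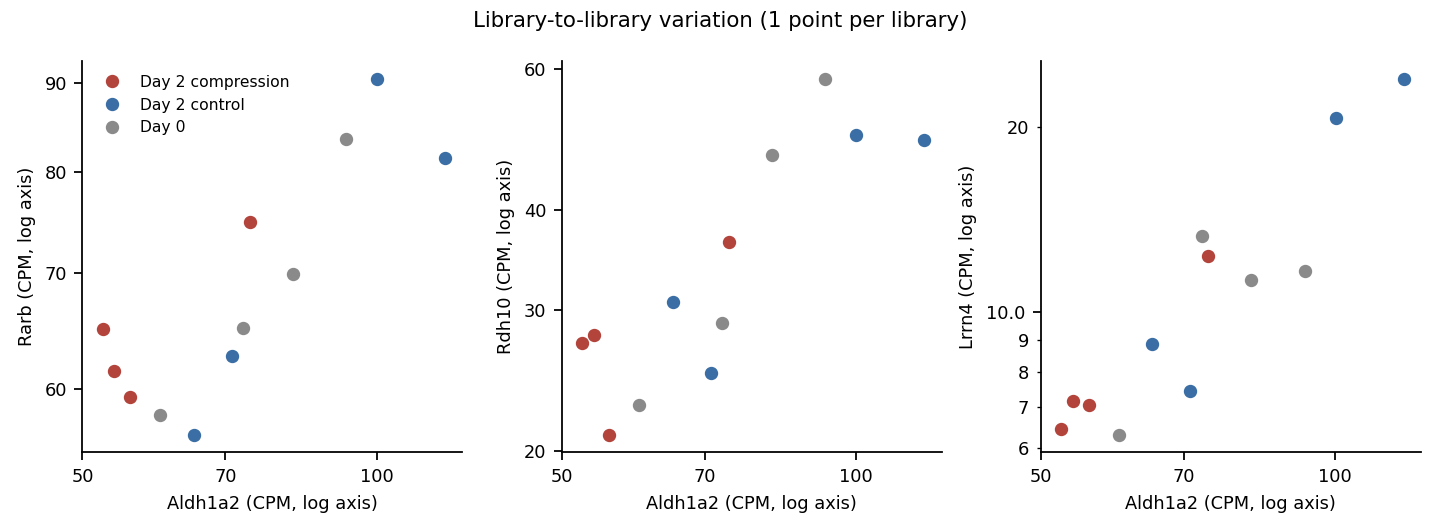
CPM of Rarb, Rdh10 and Lrrn4 against CPM of Aldh1a2, on log axes, with 1 point per library coloured by group. Within groups r with Aldh1a2 is 0.91, 0.86 and 0.91 for the 3 genes. The order of the libraries is not the same for every gene, and 3 compression libraries sit at the low end of Aldh1a2.

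Genes whose pattern was most like that of a member were the 3 with the highest Pearson's r of log2 CPM over 12 libraries, among 13107 genes compared. For Aldh1a2 they were Zdhhc24 (0.929), Fem1b (0.923) and Lrrn4 (0.918), and for Rarb they were Rdh10 (0.876), Gcnt1 (0.876) and Pacrgl (0.870). Stra6 was most like the urea transporter Slc14a1 (0.992), Basp1 (0.989) and the receptor kinase Grk6 (0.988). Crabp2 was most like Spsb4 (0.990), the plasminogen activator Plat (0.989) and Ppp4r1 (0.988), and Cyp26b1 most like the neurotensin receptor Ntsr1 (0.986), Kif7 (0.982) and Arnt2 (0.980). For these 3 members the value is set mostly by the step between the days, and within groups r with the first of each was 0.59, 0.85 and 0.88. Aldh1a1 was most like Rab11fip2 (0.963), Mboat1 (0.952) and Lmbr1 (0.951), Aldh1a3 most like the laminin chain Lama3 (0.959), Entpd1 (0.943) and Atp2c2 (0.928), and Crabp1 most like Dhx58 (0.873), Map3k8 (0.850) and Prkcb (0.840).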

How the data were processed

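Bulk RNA from 12 libraries, in 3 groups of 4 taken from the labels, was analysed. The authors deposited raw read counts per gene symbol, with no normalization found in the values. Per the submitters' processing notes they used fastp and STAR with the mm10 build. Versions, the counter, the annotation, the strand setting and the handling of reads with several matches are not stated in these sources. EdgeR 4.0.16 (R 4.3.3) was run on these counts: filterByExpr (min.count 10, min.total.count 15), TMM scaling, 1 robust quasi-likelihood fit of all 12 libraries by group, and Benjamini-Hochberg adjustment over the 15246 genes tested, with 0.05 as the threshold. The SE is the log2 fold change over the root of F. CPM values, log2 CPM (prior count 2) and the median of a list were computed from the same counts. Low counts limit precision, and all intervals cover the spread or counting error of these libraries only. Alternatives used DESeq2 1.42.0 and limma 3.58.1. The fit was tested on simulated data. Coordinates and exon lengths came from GENCODE on GRCm38, which is mm10. The members and gene lists were chosen with earlier results of these data known. All members are named, and from each list the members called and up to 4 with the smallest p per comparison, with Rara, Rarg, Rxra, Rxrb, Rxrg, Rdh10, Dhrs3 and Cyp26c1 always. A few of the genes so chosen are left out of the text. The CPM ratios were chosen after their values were seen.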

Additional observations from a re-analysis of the deposited data

Results flagged for a closer look

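In 57 groups of 4 libraries, formed by the 9 members, 9 other retinoid genes and Rbp4, the highest or lowest library was compared with the rest by Dixon's ratio at the 95% level. In 6 of them a library stood far from its nearest neighbour. For 2 of these, both of Cyp26c1, a single count among libraries at 0 fixes the ratio at its highest value, so they say nothing. Without Cyp26c1 there were 4 in 54 groups (7.41%), where chance gives about 1 in 20. Compression replicate 1 had Aldh1a2 at 74.16 CPM, with the next compression library at 55.95 CPM. Compression replicate 4 had Rara at 82.21 CPM, with the next at 68.45 CPM. Control replicate 4, the library with liver RNA, had the retinol carrier Rbp4, which the liver secretes, at 35.37 CPM, with the next control at 11.81 CPM. Day 0 replicate 1 had the lowest Rxra of its group, 149.8 CPM against 162.7 CPM. Cyp26c1 was seen in 1 control at 0.06385 CPM and in 1 Day 0 library at 0.04585 CPM, each from 1 count, and at 0 in the others of the group.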

How the results depend on the processing

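For each comparison 21 alternatives were run. Members called between Day 2 compression and Day 2 control numbered 0 in edgeR and 2 in limma-voom with quality weights (1 rose, 1 fell), and 0 in the other alternatives. Leaving out each library gave 0 each time for compression against control, 3 to 5 for control against Day 0 and 4 to 6 for compression against Day 0. Stra6, Crabp2 and Cyp26b1 were called in all 21 alternatives of both comparisons with Day 0, and Aldh1a1 in all 21 for compression and in 17 for controls. Same-numbered libraries correlated over 0.1 in 3 of 12 pairs, all of them of replicate 1 (0.11, 0.11 and 0.17), and the other pairs ran between -0.18 and 0.10. The best match, each time among 4 libraries, was with the own number in 9 of 24. These values do not settle whether replicate numbers pair the libraries. With the replicate number as a block, 0, 3 and 5 members were called for compression against control, control against Day 0 and compression against Day 0, with Aldh1a1 in controls at adjusted p = 0.05955 and Aldh1a2 under compression against Day 0 at 0.03185.

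Some uncalled members changed sign, and the cause was not tested. Rarb was at 0.02 for compression against Day 0 without Day 0 replicate 2, and for control against Day 0 at -0.01 without Day 0 replicate 4 and -0.05 without control replicate 1. For compression against control, Crabp2 was at 0.07, 0.00 and 0.00 without control replicate 2, compression replicate 3 or compression replicate 4, and Aldh1a3 at 0.16 without control replicate 3. With Xist status as a term, Crabp2 was at 0.03 and Aldh1a3 at 0.04 for compression against control, and Crabp1 at -0.14 for control against Day 0. Over the libraries left out, Rarb ran between -0.18 and 0.02 for compression against Day 0 and between -0.05 and 0.18 for control against Day 0, and for compression against control Crabp2 ran between -0.11 and 0.07 and Aldh1a3 between -0.24 and 0.16. Cyp26a1 and Aldh1a3 are limited by their low counts.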
